A study of Homo sapiens with 10 samples.

Results

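The domains described here are the longest stretches of histone H3 lysine 27 acetylation (H3K27ac) in a pair of related human prostate cancer cell lines. The domains were selected on measured peak width, as any H3K27ac peak of at least 15000 bp in C4-2B or C4-2BER, with wide peaks of both lines joined where they overlapped by at least 1 bp. The rule found 608 domains among 89877 H3K27ac regions, which are all the peaks of both lines joined in the same way. The domains covered 14.7 Mb, or 0.477% of the genome. In 256 domains both lines had a peak that wide, in 270 C4-2BER alone did, and in 82 C4-2B alone did. The C4-2B line descends from LNCaP and is a model of prostate adenocarcinoma that grows without androgen. C4-2BER was made from it by continuous culture with enzalutamide, an androgen receptor inhibitor, was kept in that drug, and is described as a neuroendocrine-like (NE-like) prostate cancer cell. The study profiled H3K27ac and H3K18ac by chromatin immunoprecipitation and sequencing (ChIP-seq) in 8 ChIP libraries, 2 for each mark and line, with 1 input library for each line. Each group is 1 cell line, so the line, its drug and its history cannot be told apart.

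Both marks are placed on histone tails mainly by the related acetyltransferases p300 and CBP, and both mark active promoters and enhancers. An H3K27ac peak is commonly a short stretch around a start site or an enhancer. Long stretches, often called super-enhancers or broad acetylation domains, are known to lie at genes that define a cell's identity, and in luminal prostate cells such genes include FOXA1, HOXB13 and the kallikreins. The rule used the width of the H3K27ac peaks, so the widths, the class of a domain and its H3K27ac cover and enrichment are given below as descriptions. H3K18ac, gene content and base composition were not used to choose the domains.

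The authors' 4 peak lists pooled the replicate libraries, so no value below has a replicate error and no difference between the lines could be tested. A peak's fold is its enrichment over background as the peak caller wrote it. For a broad peak this is an average along its length, and it is set against its own list's background, with no scaling between the lines. A domain's fold in a library pool was the mean of its peaks' folds weighted by the bases each covered. The log2 ratio is C4-2BER over C4-2B throughout. Intervals are 95% intervals over regions or genes, they cover counting error or the spread among regions, and they say nothing of culture-to-culture variation. The C4-2BER H3K27ac list held 72971 peaks and the C4-2B list 68034, with 530 and 354 at or above 15000 bp. Read depth was not analysed here. As a check of the labels, all 9 luminal markers had an H3K27ac peak within 1000 bp of a start site in both lines, at 13.7- to 42.5-fold in C4-2B and 12.1- to 32.4-fold in C4-2BER. Of 8 neuroendocrine markers, 2 had such a peak in C4-2B and 3 in C4-2BER, and CHGA, CHGB, NCAM1, NEUROD1 and INSM1 had none in either line. H3K18ac peaks lay at all 8 neuroendocrine markers in C4-2B and at 6 in C4-2BER, at no more than 4.33-fold.

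The promoters below belong to the genes on which the comparison of domains turns. They are RefSeq sequences of GRCh38.p14, 250 bases before to 50 bases after the start, printed on the strand of the gene. Capitals mark the hexamer AGAACA or its reverse complement TGTTCT, the arm of the androgen response element, searched on both strands. KLK3 (prostate-specific antigen) is the classical androgen receptor target, GRB10 encodes an adaptor of insulin receptor signalling, IL1F10 encodes interleukin-38, PMEPA1 is an androgen-regulated inhibitor of TGF-beta signalling, and SLC45A3 encodes the luminal antigen prostein.
KLK3, chr19:50854665-50854964, + strand: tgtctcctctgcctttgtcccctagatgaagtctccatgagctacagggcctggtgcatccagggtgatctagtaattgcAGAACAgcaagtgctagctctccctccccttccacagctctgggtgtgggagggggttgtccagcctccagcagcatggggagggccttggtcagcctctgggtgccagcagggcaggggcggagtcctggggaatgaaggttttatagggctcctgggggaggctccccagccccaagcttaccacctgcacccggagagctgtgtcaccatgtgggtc
GRB10, chr7:50793404-50793703, - strand: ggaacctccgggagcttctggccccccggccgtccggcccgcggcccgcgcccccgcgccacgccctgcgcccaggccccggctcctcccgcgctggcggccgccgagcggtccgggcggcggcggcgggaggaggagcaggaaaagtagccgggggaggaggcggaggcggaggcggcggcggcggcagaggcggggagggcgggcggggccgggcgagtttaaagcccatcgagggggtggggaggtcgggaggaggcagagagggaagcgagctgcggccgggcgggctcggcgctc
IL1F10, chr2:113067720-113068019, + strand: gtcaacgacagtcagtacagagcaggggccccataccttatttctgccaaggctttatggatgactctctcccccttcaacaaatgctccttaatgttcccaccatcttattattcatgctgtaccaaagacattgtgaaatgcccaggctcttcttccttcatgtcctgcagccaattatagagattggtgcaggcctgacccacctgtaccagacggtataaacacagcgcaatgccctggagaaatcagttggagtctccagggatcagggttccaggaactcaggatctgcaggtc
PMEPA1, chr20:57711423-57711722, - strand: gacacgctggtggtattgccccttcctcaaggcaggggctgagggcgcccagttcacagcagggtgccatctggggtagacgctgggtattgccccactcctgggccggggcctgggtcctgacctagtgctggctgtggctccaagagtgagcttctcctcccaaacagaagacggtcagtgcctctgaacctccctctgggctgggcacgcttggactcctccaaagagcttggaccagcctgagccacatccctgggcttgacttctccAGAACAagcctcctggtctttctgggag
SLC45A3, chr1:205680460-205680759, - strand: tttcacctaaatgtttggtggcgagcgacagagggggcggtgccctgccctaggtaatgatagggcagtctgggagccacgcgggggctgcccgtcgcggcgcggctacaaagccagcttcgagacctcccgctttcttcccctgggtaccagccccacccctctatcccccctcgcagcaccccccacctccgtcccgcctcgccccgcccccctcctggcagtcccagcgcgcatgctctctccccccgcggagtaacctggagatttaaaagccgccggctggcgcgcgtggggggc
The hexamer occurred once in the KLK3 and PMEPA1 windows and not in the other windows. It was present in 5192 of 35116 RefSeq promoters (14.8%) and in 81 of the 1075 promoters that lay inside a domain (7.53%). The KLK3 window lay in H3K27ac peaks of 29088 bp and 20.3-fold in C4-2B and of 28406 bp and 13.8-fold in C4-2BER. The IL1F10 window had no peak of either mark in C4-2B, and in C4-2BER it lay in an H3K27ac peak of 15748 bp and 7.73-fold and an H3K18ac peak of 5.19-fold. At GRB10 the promoter itself was acetylated in both lines. Its window lay in a 3048 bp H3K27ac peak of 32.5-fold in C4-2B and in an 18337 bp peak of 12.9-fold in C4-2BER. The PMEPA1 window went the other way in width, from a 16453 bp peak of 15.8-fold in C4-2B to a 4621 bp peak of 12.8-fold in C4-2BER.

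The complete palindromic androgen response element, AGAACA and TGTTCT with a gap of 3 bases, was rare. It occurred 4 times in the domains, each time in a domain that was wide in both lines, and 46 times in all H3K27ac regions. By length these were nearly the same rate, 0.272 per Mb of domains and 0.267 per Mb of all regions. Domains wide in both lines held 7.81 of the 14.7 Mb of domains. The 4 matches are shown with 33 bases on each side (hg38, + strand) because they are the closest in these data to a full androgen receptor site inside a broad domain.
NEDD4L, chr18:58285887-58285967: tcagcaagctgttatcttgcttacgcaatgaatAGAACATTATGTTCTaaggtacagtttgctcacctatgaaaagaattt
SBNO2, chr19:1111230-1111310: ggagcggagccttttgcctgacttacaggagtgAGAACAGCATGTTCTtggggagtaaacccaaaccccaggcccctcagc
NFIC, chr19:3375904-3375984: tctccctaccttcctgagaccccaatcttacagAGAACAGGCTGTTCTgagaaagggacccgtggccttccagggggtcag
BCOR, chrX:40080716-40080796: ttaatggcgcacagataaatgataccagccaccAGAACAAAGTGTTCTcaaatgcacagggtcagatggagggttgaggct
All 4 matches lay in introns of the named gene. Capitals mark the element, which was found in 0.00168% of 2080270 windows of 81 bases tiled over all H3K27ac regions. NEDD4L encodes a ubiquitin ligase and its match lay under H3K27ac at 9.05-fold in C4-2B and 7.18-fold in C4-2BER, with no H3K18ac peak in either line. The match in SBNO2 lay under H3K27ac at 17.5- and 10.4-fold. The match in NFIC, a nuclear factor I gene, lay under H3K27ac at 17.7- and 10.9-fold. In BCOR, a transcriptional corepressor gene, the match lay between the peaks of H3K27ac in C4-2B and under a 21.4-fold peak in C4-2BER, while H3K18ac covered it at 7.00- and 9.01-fold. A match is a description of letters and no binding was measured.

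The domains had a median length of 20631 bp (20031 to 21442), from 15007 to 156881 bp. Domains wide in both lines were the longest, with a median of 25712 bp, against 18444 bp for those wide in C4-2BER alone and 17176 bp for those wide in C4-2B alone. The widest lay over ZMIZ1, which encodes a coactivator of the androgen receptor (chr10:79059440-79216320). In C4-2BER it was 1 H3K27ac peak of 156881 bp at 6.78-fold, and in C4-2B it was 22 peaks that covered 110400 bp at 7.70-fold. H3K18ac covered 147201 bp of it in C4-2B and 155229 bp in C4-2BER. H3K27ac was thus both shorter and in more pieces in C4-2B, while H3K18ac cover differed less.

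The next longest domains differed less. GSE1, which encodes a subunit of a corepressor complex, had 115375 bp under H3K27ac in 7 peaks in C4-2B (13.2-fold) and 124701 bp in 1 peak in C4-2BER (12.1-fold). RXRA, the retinoid X receptor gene, had 118723 bp at 15.6-fold in C4-2B and 120004 bp at 12.6-fold in C4-2BER. The domain over LYL1 and NFIX had 114114 bp at 14.3-fold and 114497 bp at 13.7-fold. Each of these was a long block in both lines with a lower fold in C4-2BER as deposited, and at GSE1 and at LYL1 with NFIX the sign turned when ratios were centred. A 90397 bp domain with no protein-coding start (chr22:46034456-46124852) spanned the let-7 host gene MIRLET7BHG and held the widest C4-2B peak of all, 90295 bp at 24.1-fold against 90270 bp at 21.2-fold in C4-2BER. PIEZO1, a mechanosensitive channel gene, completed the widest C4-2B peaks, with 62844 bp at 19.6-fold and 63813 bp at 16.5-fold.

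**Figure D1:**
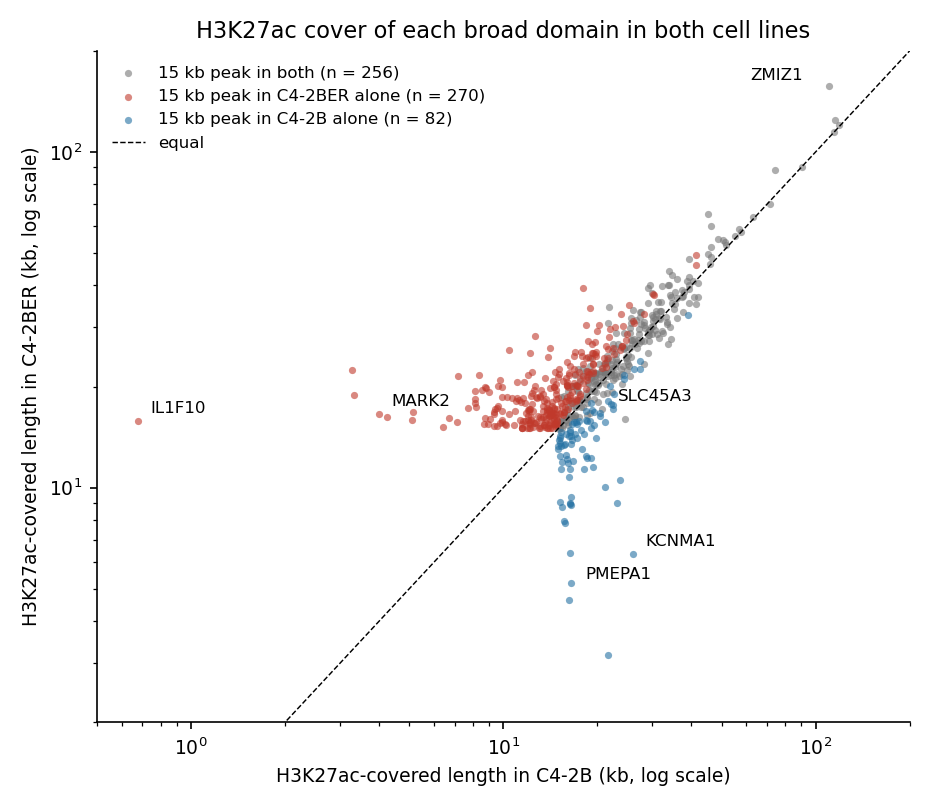
Length under H3K27ac in each of the 608 domains, C4-2B on the x axis and C4-2BER on the y axis, both in kb on a log scale, with 1 point a domain coloured by the line that had a peak of at least 15000 bp. IL1F10 lies farthest from the dashed line of equality, with 679 bp in C4-2B and 15748 bp in C4-2BER, and KCNMA1 and PMEPA1 lie on the other side.

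A domain wide in a single line was seldom bare in the other. Every one of the 608 domains had peaks of both marks in both lines. In the 270 domains wide in C4-2BER alone, the H3K27ac peaks of C4-2B covered a median of 77.6% of the domain in a median of 3 pieces, and under 50% in 28. The widest C4-2B peak there was 10000 bp or more in 123, 5000 bp to under 10000 bp in 117 and shorter in 30. In the 82 domains wide in C4-2B alone, the C4-2BER peaks covered a median of 81.6%, and under 50% in 9. Covered length was at least 2 times as great in C4-2BER in 28 domains and in C4-2B in 9, where 38% and 23.5% of all regions passed the same ratio, a background made largely of regions with no peak in the other line.

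The larger number of domains wide in C4-2BER alone (270 against 82) followed the larger number of wide peaks in that list. When the 354 widest peaks of each list were taken, which set the minimum at 15006 bp in C4-2B and 18134 bp in C4-2BER, 207 domains were wide in both, 145 in C4-2BER alone and 131 in C4-2B alone. The minimum also cut through a continuous range of widths. Just inside it in C4-2B were the peaks at PLEKHH3 (15006 bp), at a chromosome 10 site with a lncRNA start (15007 bp) and at HID1 (15015 bp). Just outside were SPINT2 (14987 bp), EPN1 (14973 bp) and a peak with no start site (14952 bp). In C4-2BER the peaks just inside included those at UPB1 (15006 bp) and MFSD4A (15011 bp), and those just outside were a peak with no start site (14997 bp), ZNF747 with ZNF768 (14971 bp) and PTMA (14970 bp).

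As deposited, the mean H3K27ac fold was lower in C4-2BER over most domains. The mean was over covered bases only. In domains wide in C4-2BER alone, shorter C4-2B peaks were thus set against a single longer peak. The paper reports a global rise of this acetylation in the NE-like line by immunoblot, and more ChIP signal at accessible regions there. A lower fold here is relative to each list's own background and does not show that acetylation fell. The median log2 ratio was -0.27 (-0.31 to -0.25), against -0.17 over all regions with a peak in both lines and -0.27 over the 918 regions whose widest peak was 10000 to under 15000 bp. The fold was higher in C4-2BER in 116 of 608 domains (19.1%), against 36.2% of all shared regions. This split moved with the scaling. It was 13.2% when the highest peak of a domain was used, 35.4% when ratios were centred on all shared regions, 43.8% when they were centred within classes of GC content and 39.0% for fold multiplied by covered length. The ratio was lower where GC content was higher (Pearson's r = -0.39 and Spearman's rho = -0.42 across 608 domains, which share libraries and are not independent replicates). Within the classes r was -0.50 (both), -0.39 (C4-2BER alone) and 0.004 (C4-2B alone). It was -0.20 over regions whose widest peak was 10000 to under 15000 bp. GC content had a median of 56.2% in domains wide in both lines, 52.9% in those wide in C4-2BER alone and 57.4% in those wide in C4-2B alone, and its part in the ratios was not tested.

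A fold that differed by at least 2 times was uncommon. H3K27ac passed that ratio upward in C4-2BER in 4 domains (2.64% of all shared regions did) and downward in 5 (4.67%). H3K18ac passed it in 0 domains in either direction (0.636% and 1.20% of all regions with the mark in both lines). The H3K18ac log2 ratio had a median of -0.06 (-0.09 to -0.03) over the domains and -0.11 over all regions, and the fold was higher in C4-2BER in 241 of 608 domains (39.6%, against 38.6%). That median became 0.06 when ratios were centred on all shared regions and 0.10 when they were centred within GC classes, so its direction depends on the scaling.

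In domains wide in a single line, median H3K18ac cover, which the rule did not use, differed in the same direction as H3K27ac. In domains wide in C4-2BER alone, H3K18ac covered a median of 79.1% (76.6 to 83.8) in C4-2B and 91.3% (89.0 to 93.8) in C4-2BER. It covered more of the domain in C4-2BER in 178 of the 270 (65.9%, against 49.2% of all regions) and more in C4-2B in 75 (27.8%, against 24.4%). The remaining domains and regions had equal cover in both lines. Equal cover was more common among all regions, so both shares of the domains lay above those of all regions. In domains wide in C4-2B alone the order turned, with 93.5% (89.8 to 94.8) in C4-2B and 75.2% (67.6 to 82.1) in C4-2BER, and more in C4-2B in 61 of 82 (74.4%). In domains wide in both lines the medians were 93.1% and 91.1%. The 2 marks in a line were measured in separate libraries but against the same input library.

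Wide H3K18ac peaks were divided in the same way. A peak of at least 15000 bp in both lines overlapped 153 of the 256 domains wide in both for H3K27ac, against 0.99% of all regions. In domains wide in C4-2BER alone, 80 had a wide H3K18ac peak in C4-2BER alone (29.6%, against 1.59% of all regions), 15 in C4-2B alone, 64 in both and 111 in neither. In domains wide in C4-2B alone, 27 had a wide H3K18ac peak in C4-2B alone (32.9%, against 2.41%), 10 in C4-2BER alone, 20 in both and 25 in neither. All regions had a median length of 1090 bp, so their shares are not matched to the domains for size. The nearest regions by size, with a widest H3K27ac peak of 10000 to under 15000 bp, had 105 and 98 in a single line among 918. Taken the other way, 338 of 1076 wide H3K18ac peaks of C4-2B (31.4%, 28.7 to 34.2) and 341 of 914 of C4-2BER (37.3%, 34.2 to 40.5) overlapped a domain, so most broad H3K18ac lay elsewhere.

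**Figure D2:**
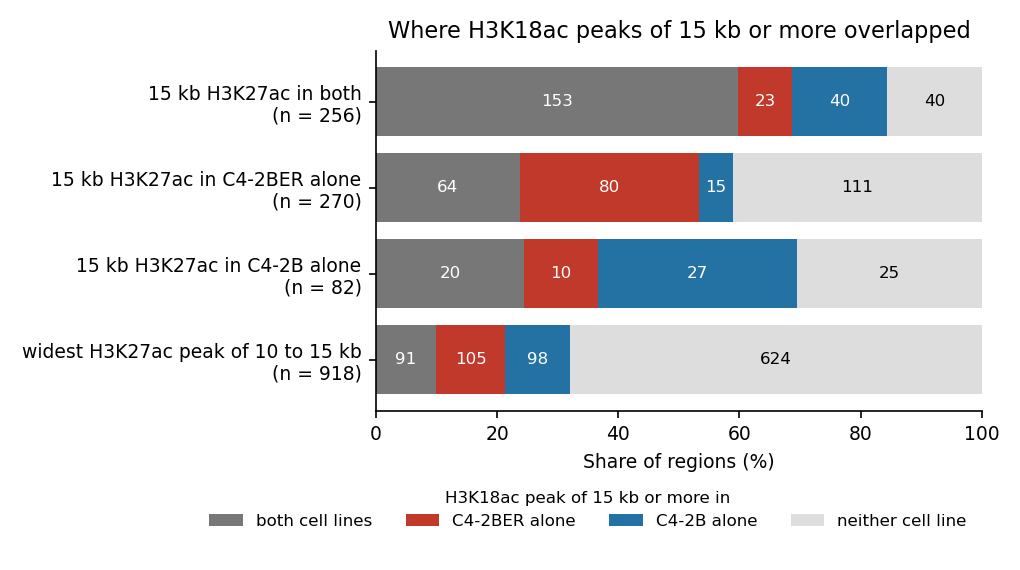
Share of regions (x axis, percent) that overlapped an H3K18ac peak of at least 15000 bp in both lines, in C4-2BER alone, in C4-2B alone or in neither, for the 3 classes of domain and for regions with a widest H3K27ac peak of 10000 to under 15000 bp, with counts printed in the bars. Of domains wide for H3K27ac in C4-2BER alone 80 of 270 had wide H3K18ac in C4-2BER alone, and of those wide in C4-2B alone 27 of 82 had it in C4-2B alone.

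Across the domains the differences of both marks ran together. Over 608 domains the difference in covered share gave r = 0.62 and rho = 0.58, and the log2 ratio gave r = 0.62 and rho = 0.60. Within the classes of domain r of the covered share was 0.46 (both), 0.60 (C4-2BER alone) and 0.32 (C4-2B alone). Regions whose widest peak was 10000 to under 15000 bp gave r = 0.61 for the covered share and r = 0.68 for the log2 ratio. The relation was thus not particular to the domains. These are descriptions across regions that share libraries and inputs. Of the 28 domains in which H3K27ac cover was at least 50 percentage points greater in C4-2BER, 27 also had more H3K18ac cover there, by a median of 33.1 points. Of the 9 at least 50 points greater in C4-2B, all 9 had more H3K18ac cover in C4-2B, by a median of 20.8 points. In the 226 domains within 10 points for H3K27ac, the median H3K18ac difference, C4-2BER minus C4-2B, was -0.999 points.

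**Figure D3:**
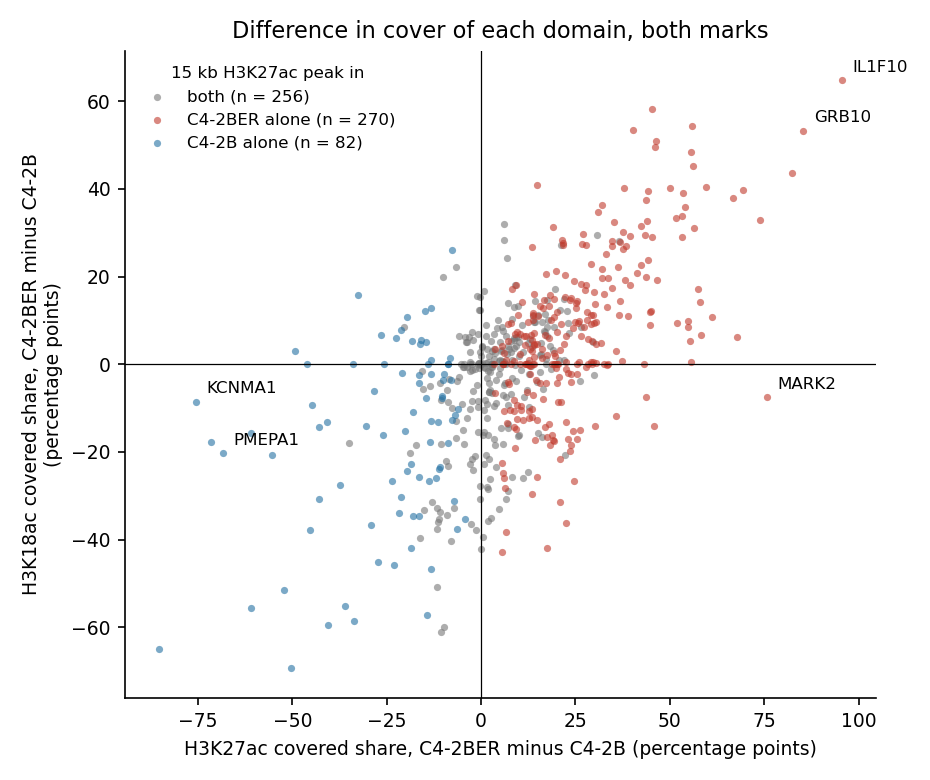
Difference in the covered share of each of 608 domains, C4-2BER minus C4-2B, in percentage points, for H3K27ac (x axis) and H3K18ac (y axis), with 1 point a domain coloured by class. IL1F10 is at the upper right and PMEPA1 and KCNMA1 are at the left. MARK2 lies at the right edge below 0, with more H3K27ac but slightly less H3K18ac in C4-2BER.

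The greatest difference in cover toward C4-2BER lay at IL1F10, a gene of the interleukin-1 family (chr2:113064937-113080684). In C4-2B 2 H3K27ac peaks covered 679 of 15748 bp at 2.90-fold, and in C4-2BER 1 peak covered all of it at 7.73-fold, a log2 ratio of 1.41. H3K18ac covered 4026 bp at 3.49-fold in C4-2B and 14235 bp at 5.61-fold in C4-2BER (0.68). Both marks were longer and higher in C4-2BER at this domain, under each scaling tried.

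GRB10 held the longest run of such domains. On chromosome 7, 7 domains lay within 331247 bp (chr7:50465543-50796789) over DDC, the DOPA decarboxylase gene, and GRB10, and all 7 were wide in C4-2BER alone. Together they held 166967 bp, of which H3K27ac of C4-2B covered 60054 bp in 29 peaks and that of C4-2BER all in 7. H3K18ac covered 87404 bp in 38 peaks in C4-2B and 157317 bp in 14 in C4-2BER. The members were not alike in fold. The domain at chr7:50588470-50610816, which holds an alternative GRB10 start, went from 3270 of 22347 bp at 3.31-fold to the whole length at 7.10-fold (log2 ratio 1.10 for H3K27ac and 0.73 for H3K18ac). Its neighbour of 39216 bp, with a lncRNA start, went from 18014 bp at 3.18-fold to the whole at 7.48-fold (1.23 and 0.59), and another of 18896 bp went from 3331 bp at 2.56-fold to the whole at 5.18-fold (1.02 and 0.42). The domain at the canonical GRB10 start differed from these, since its mean H3K27ac fold was 17.2 over 8106 bp in C4-2B and 12.9 over 18337 bp in C4-2BER (-0.42), and H3K18ac had the same sign (-0.40). At the start of GRB10 the mean fold was lower over a wider stretch in C4-2BER, whereas fold multiplied by covered length was higher there for both marks. In the 3 gene-body domains given above both the cover and the fold were higher in C4-2BER. Copy number was not analysed here, and neighbouring domains of 1 locus are not independent of each other.

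The other domains with the greatest difference in cover toward C4-2BER differed in width with little change in fold. In SLC20A1, a phosphate transporter gene, H3K27ac went from 4255 to 16280 bp at 6.41- and 6.78-fold, and H3K18ac from 5932 to 11281 bp. In MARK2, a polarity kinase gene, it went from 4009 to 16551 bp at 2.63- and 2.54-fold, but H3K18ac covered 7401 bp in C4-2B and 6169 bp in C4-2BER. The sign of the H3K27ac ratio changed with the scaling at SLC20A1 and MARK2. Among the domains with the highest H3K18ac ratios was also CARD9, where the H3K18ac fold was 4.14 in C4-2B and 6.30 in C4-2BER (0.61). At CARD9 the cover moved against the fold, since H3K18ac covered 13015 bp in C4-2B and 3913 bp in C4-2BER.

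Toward C4-2B the greatest differences included a locus of the androgen-regulated gene PMEPA1 on chromosome 20. A 21698 bp domain near the gene (chr20:57649394-57671091) was wholly covered by H3K27ac at 4.25-fold in C4-2B and over 3184 bp at 2.22-fold in C4-2BER. H3K18ac there went from 20650 bp at 3.6-fold to 6576 bp at 2.38-fold. The domain at the promoter, which also holds the start of the lncRNA NKILA (chr20:57698557-57715009), went from 16453 bp at 15.8-fold to 5190 bp at 11.6-fold, and its H3K18ac ratio was -0.64. At both, each mark was shorter and lower in C4-2BER. The third domain of the locus, 15621 bp long, kept its fold (8.75 and 9.02) while its H3K27ac cover went to 7933 bp, and H3K18ac covered 14031 and 14495 bp.

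KCNMA1, which encodes a calcium-activated potassium channel, had the lowest H3K27ac log2 ratio (chr10:77485286-77511290). There 1 peak covered all 26005 bp at 7.46-fold in C4-2B, and 5 peaks covered 6353 bp at 2.91-fold in C4-2BER (-1.36). H3K18ac kept 18323 of 20551 bp but went from 5.74- to 3.39-fold (-0.76), which was the lowest H3K18ac ratio of the 608 domains. A domain with a start of ARLNC1, an androgen receptor-regulated lncRNA (chr16:80869121-80885350), went from 16230 bp at 8.05-fold to 4633 bp at 6.25-fold, with H3K18ac at 5.14- and 3.41-fold. SPECC1L with ADORA2A, an adenosine receptor gene, went from 23127 bp at 3.08-fold to 9024 bp in 6 peaks at 2.35-fold, but H3K18ac still covered 19482 of 23127 bp.

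The other domains whose H3K27ac fold was at least 2 times as high in C4-2B were wide there too. SLC45A3 was wide in both lines (25513 bp and 21487 bp covered), and its fold was 12.1 in C4-2B and 4.95 in C4-2BER (-1.29), with H3K18ac at 6.41 and 4.32. Its promoter window lay in the 25513 bp H3K27ac peak in C4-2B, but in a shorter peak of 6163 bp at 6.66-fold in C4-2BER. ABCC1, a multidrug transporter gene, had 10.6 and 4.57 (-1.21). SLC43A1, an amino acid transporter gene, had 11.6 and 5.15 (-1.17), and a domain near SMIM41 had 12.8 and 6.15 (-1.06). H3K18ac was also lower in C4-2BER at each of these, with log2 ratios of -0.57 to -0.66. The lowest H3K18ac ratios further included ENO1, a glycolytic enzyme gene (-0.69), and the divergent pair SLBP and TACC3 (-0.65). At IL1F10, the 3 gene-body domains of the GRB10 locus given above, KCNMA1, SLC45A3, ABCC1, SLC43A1 and the first 2 PMEPA1 domains the H3K27ac ratio kept its sign under every scaling, and at ENO1 it did not.

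**Figure D4:**
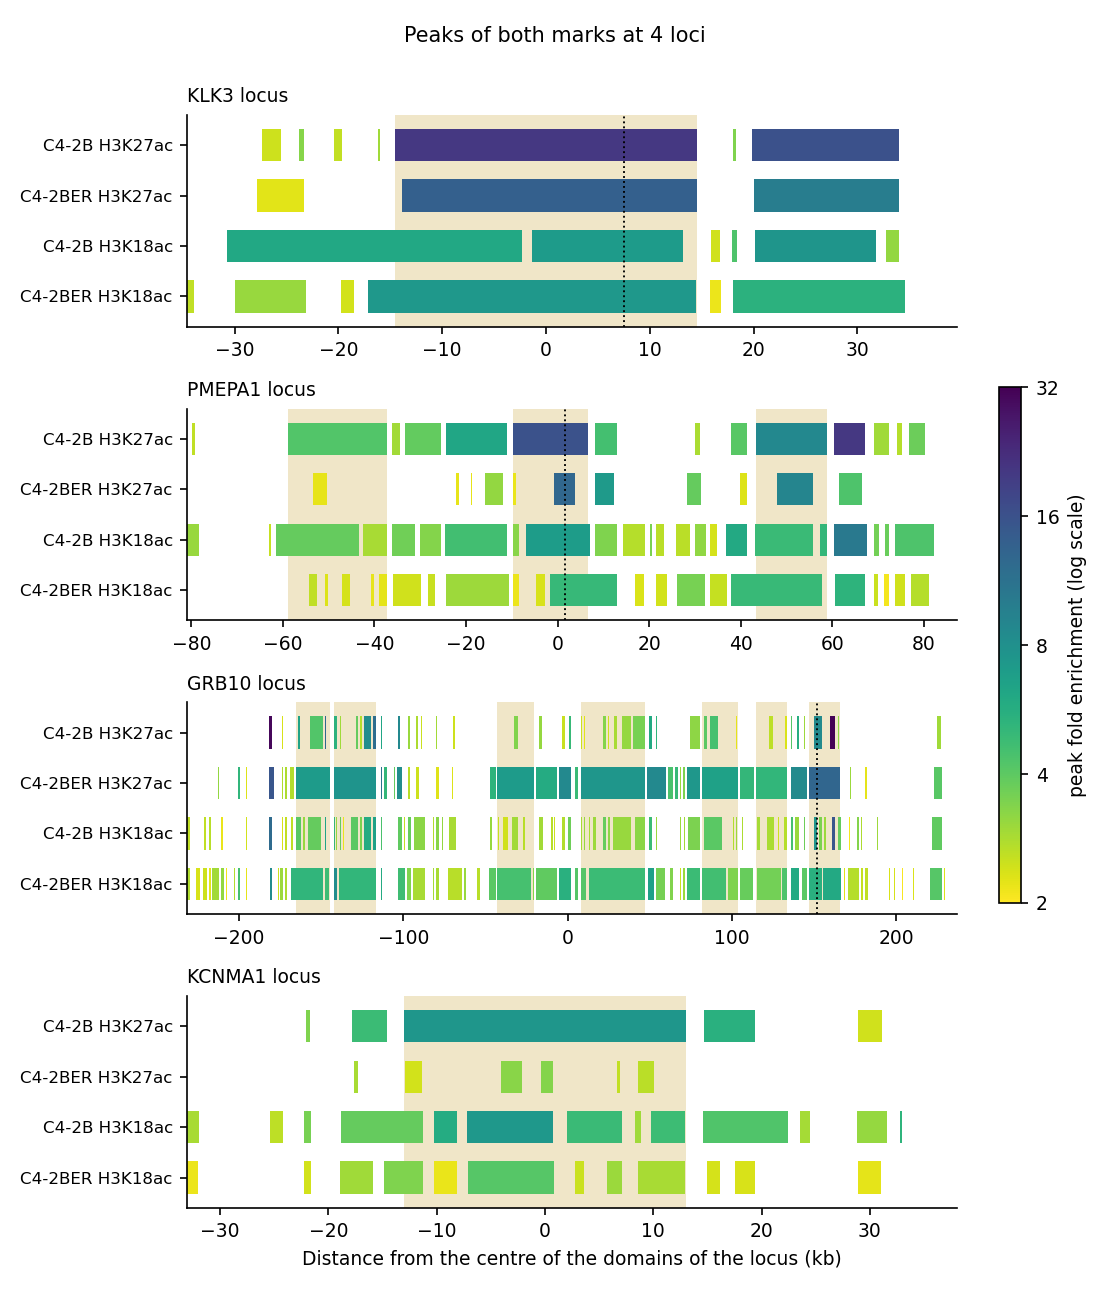
Peaks of both marks in both lines at 4 loci, with distance from the centre of the locus's domains in kb on the x axis, bars coloured by peak fold on a log scale, domains shaded and the canonical start of the gene dotted. KLK3 keeps its long H3K27ac peak in both lines, and the wide H3K27ac peaks of PMEPA1 and KCNMA1 give way to shorter ones in C4-2BER. At PMEPA1 H3K18ac keeps long peaks in C4-2BER at the promoter and in the rightmost domain, but only short ones in the leftmost domain. At GRB10 peaks join into longer ones in C4-2BER.

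The highest H3K27ac folds belonged to domains of middling length, 18413 to 25755 bp. In C4-2B they were TNRC18 (32.9-fold, against 26.0 in C4-2BER), CRIP2 with MTA1 (29.0 and 21.5) and GRIN1 with LRRC26 (28.9 and 20.02). In C4-2BER they were TNRC18, EEIG1 (22.3, against 20.3 in C4-2B) and CRIP2 with MTA1. Of these 4 domains, EEIG1 alone had the higher fold in C4-2BER.

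Luminal and androgen receptor genes were the list most often found in a domain. A start site of 12 of 36 lay inside (33.3%, 20.2 to 49.7), against 886 of 20033 protein-coding genes (4.42%). With the canonical start alone it was 9 of 36, against 3.62%. The lists were chosen with earlier results of these data known, so the shares describe them and are not tests. The 9 were KLK3, HOXB13, FOXA1, GATA2, GRHL2, SLC45A3, CDH1, SPDEF and PMEPA1. KLK2, TMPRSS2 and FKBP5 were inside by another annotated start only. The androgen receptor gene itself was not in a domain, and its start lay in peaks of 4086 bp at 42.5-fold in C4-2B and 5740 bp at 32.4-fold in C4-2BER.

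The 11 luminal domains all had a lower H3K27ac fold in C4-2BER as deposited, as did 492 of all 608 domains. At GRHL2, SPDEF and TMPRSS2 the sign changed under another scaling. FOXA1, a pioneer factor, had 20446 bp at 24.97-fold in C4-2B and 21406 bp at 15-fold in C4-2BER (-0.73), with H3K18ac at 10.3 and 7.84. GATA2 had 20126 bp at 22.6-fold and 20263 bp at 15.5-fold, and HOXB13, a prostate homeobox factor, 19052 bp at 23.5-fold and 22066 bp at 19.8-fold. Each of these transcription factor domains had an H3K27ac peak of at least 15000 bp in both lines, and at HOXB13 the cover was shorter in C4-2B. The KLK2 and KLK3 domain (chr19:50832882-50861969) had H3K27ac at 20.3- and 13.8-fold over 29088 and 28406 bp (-0.56), while H3K18ac went from 26812 bp at 6.61-fold to 28966 bp at 7.28-fold (0.14), a sign opposite to that of H3K27ac. SPDEF, an ETS factor gene, had 19.6- and 16.7-fold, CDH1 (E-cadherin) 13.8- and 12.04-fold, and GRHL2, a grainyhead factor gene, 10.8- and 10.0-fold. TMPRSS2, an androgen-regulated protease gene, was wide in C4-2BER alone (15952 bp in 3 peaks at 12.8-fold, then 20582 bp at 11.7-fold) with nearly the same H3K18ac cover in both (20461 and 20582 bp). FKBP5, a glucocorticoid- and androgen-induced chaperone gene, was wide in C4-2B alone (18563 bp at 17.6-fold, then 12241 bp at 12.8-fold), and H3K18ac covered all 18563 bp in both lines.

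Of 33 neuroendocrine genes, ENO2 (neuron-specific enolase) alone had a start inside a domain (3.03%, 0.537 to 15.3), a share near the 4.42% of all protein-coding genes, and that was not its canonical start. Its 26021 bp domain also held the canonical starts of ATN1 and C12orf57 and went from 22397 bp at 18.2-fold in C4-2B to the whole at 14.3-fold in C4-2BER. None of 24 genes of the PAX5 axis and neural adhesion list had a start in a domain (0%, up to 13.8%), an interval that includes the 4.42% of all protein-coding genes.

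Among genes of the HOX clusters 7 of 39 (17.9%, 8.98 to 32.7) had a start inside, in 3 domains. HOXA9, HOXA10 and HOXA11 shared 1 of 30512 bp, which went from 20299 bp in 6 peaks at 15.03-fold in C4-2B to 1 peak at 13.3-fold in C4-2BER. HOXC10, HOXC11 and, by another start, HOXC6 shared 1 of 20054 bp, from 9628 bp in 6 peaks at 4.41-fold to the whole at 5.95-fold. H3K18ac covered most of both in both lines (26501 and 30459 bp at HOXA, 18163 and 20054 bp at HOXC). The direction of the H3K27ac ratio at both depended on the scaling.

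**Figure D5:**
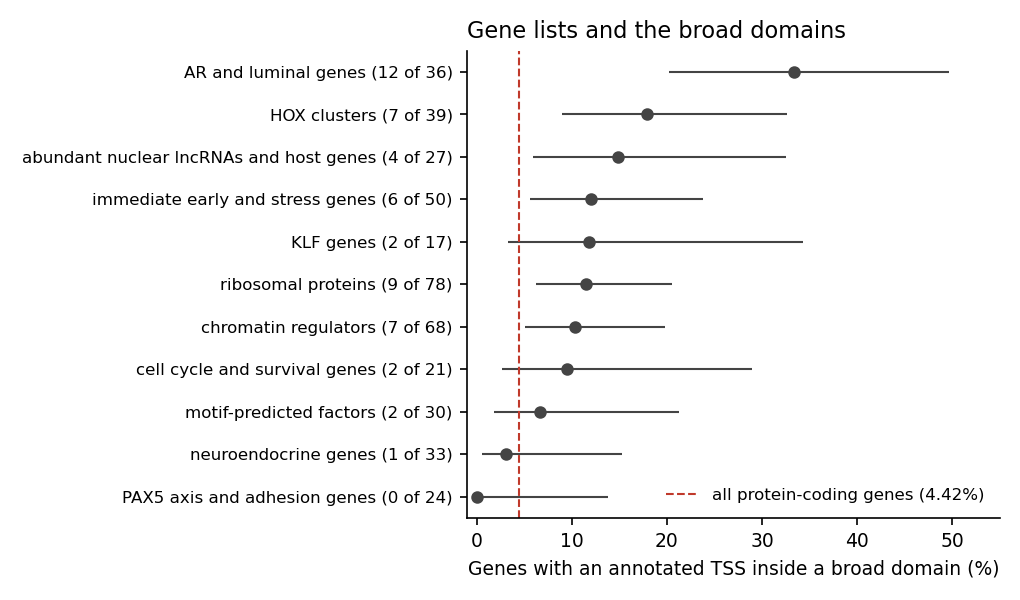
Share of each gene list with an annotated start inside a domain (x axis, percent), with 95% Wilson intervals that cover counting error alone and the share of all protein-coding genes (4.42%) as a dashed line. Luminal genes are highest with 12 of 36, and the neuroendocrine (1 of 33) and PAX5 axis (0 of 24) lists are lowest.

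The remaining lists lay between these, and 4.42% of all protein-coding genes had a start inside. The intervals of the cell cycle (2.65 to 28.9), KLF (3.29 to 34.3) and motif prediction (1.85 to 21.3) lists include that share. Those of the ribosomal protein (6.19 to 20.5), stress (5.62 to 23.8) and chromatin (5.08 to 19.8) lists lay above it, and no share was tested. Ribosomal protein genes, which are transcribed at high rates in growing cells, had 9 of 78 starts inside (11.5%), all canonical, in 8 domains, among them those at RPL7A, RPL13A, RPL23A, RPL29, RPL36, RPS15 and RPS19. The H3K27ac fold was lower in C4-2BER at all 8 (log2 ratio -0.91 at RPS19 to -0.26 at RPL13A), under each scaling tried. Of all 608 domains, 492 were lower as deposited and 342 when ratios were centred within GC classes. Immediate early and stress genes had 6 of 50 (12%), namely JUNB, ATF4, IER3, DDIT3, PIM3 and, by another start, MCL1, which also stood on the cell cycle list with CCND1 (2 of 21). CCND1, the cyclin D1 gene, had 22791 bp at 23.7-fold in C4-2B and 22833 bp at 15.4-fold in C4-2BER (-0.62), and the sign held under every scaling. Chromatin regulators had 7 of 68 (10.3%), among them BRD3, SETD1B and KDM6B by the canonical start and HDAC7 and CHD2 by another. KLF13 and KLF16 were the 2 of 17 KLF genes, both wide in both lines. ELF3 and, by another start, CDX2 were the 2 of 30 factors on the list of motif predictions, both wide in C4-2BER alone. Nuclear lncRNAs and host genes had 4 of 27 (14.8%), against 1.95% of all lncRNA genes. Of these, MALAT1 had 35144 bp at 13.3-fold in C4-2B and 34138 bp at 13.7-fold in C4-2BER. The others were SNHG3 (9.66- and 8.98-fold), DLEU2 by another start (12.2- and 9.34-fold) and PVT1, a lncRNA downstream of MYC. PVT1 had starts in 4 domains, each in fewer H3K27ac peaks in C4-2BER than in C4-2B, the widest being 49317 bp in 1 peak at 8.54-fold against 41284 bp in 5 peaks at 8.50-fold.

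The domains were rich in genes. They held 60.1 protein-coding genes with a start inside per Mb against 6.49 across the genome, and 367 of 18866 lncRNA genes (1.95%). The gene density of other H3K27ac regions is not given here. Exons of protein-coding genes made up 18.3% of domain bases, introns 63.9% and ground outside those genes 17.8%, against 13.0%, 55.2% and 31.8% of the bases of all H3K27ac regions. Regions whose widest peak was 10000 to under 15000 bp had 18.9%, 59.1% and 22.0%, so their exon share was much like that of the domains. The 10 protein-coding genes in a 54650 bp domain on chromosome 17, among them DLG4, ACADVL, DVL2 and CLDN7, were the most in any domain, and a 37662 bp domain on chromosome 8 held GPT, LRRC14 and PPP1R16A among others. A 26470 bp domain on chromosome 11, wide in C4-2BER alone, held DNAJC4, FKBP2 and NUDT22 among others. No protein-coding start lay in 95 domains. That was 8.20% of domains wide in both lines (5.43 to 12.2), 20.4% of those wide in C4-2BER alone (16 to 25.6) and 23.2% of those wide in C4-2B alone (15.4 to 33.4). The longest of the 95 were the let-7 host domain, the 49317 bp PVT1 domain and 40127 bp near RAI1, where H3K27ac was 7.70- and 7.74-fold and H3K18ac 4.15- and 6.04-fold.

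Where a domain held the start of a single protein-coding gene, it ran mostly into that gene. In the 191 domains that held 1 protein-coding gene with its canonical start inside, the domain reached farther downstream than upstream of the start in 164 (85.9%, 80.2 to 90.1). The median reach was 16324 bp downstream and 3113 bp upstream. The same share was not computed for other H3K27ac regions, so it is not shown to be particular to the domains.

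Domains were also grouped along the chromosomes. With gaps of up to 100000 bp, 306 of 608 lay in 113 groups, 67 of them pairs. Groups of a single class numbered 25 for domains wide in C4-2BER alone, 2 for C4-2B alone and 15 for both lines. These classes held 270, 82 and 256 domains. The group counts were not set against what such class sizes would give, so they are no result about grouping by class. Chromosome 19 had 74 domains, or 12.6 per 10 Mb, and 12.2% of all domains against 3.72% of all H3K27ac regions. Chromosomes 17 and 1 followed with 66 and 63, chromosome 13 had 3, chromosome 21 had 1 and Y had 0.

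Of 1560 RefSeq miRNA genes, 71 (4.55%) lay inside 56 of the 608 domains, a share near the 4.42% of protein-coding genes with a start inside. The mature sequences of those that are best known in prostate and epithelial cells are given by seed, with bases 2 to 8 in capitals (RefSeq, GRCh38.p14). The let-7 and miR-196 seeds overlap by a shift of 1 base, and miR-200c and miR-141 differ in 1 seed base.
hsa-let-7a-5p: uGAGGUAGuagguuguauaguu
hsa-let-7b-5p: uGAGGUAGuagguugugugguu
hsa-miR-196a-5p: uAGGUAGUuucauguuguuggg
hsa-miR-196b-5p: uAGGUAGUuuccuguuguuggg
hsa-miR-200c-3p: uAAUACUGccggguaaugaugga
hsa-miR-141-3p: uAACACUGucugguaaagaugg
hsa-miR-26b-5p: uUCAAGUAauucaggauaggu
hsa-miR-210-3p: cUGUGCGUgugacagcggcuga
hsa-miR-193b-3p: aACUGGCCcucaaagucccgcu
hsa-miR-365a-3p: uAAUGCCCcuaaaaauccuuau
The let-7 genes lay in the 90397 bp domain given above, at 24.1- and 21.2-fold for H3K27ac and 8.48- and 8.64-fold for H3K18ac. The miR-196 genes lay in the HOXA and HOXC domains that were wide in C4-2BER alone. The miR-200c and miR-141 pair, which represses ZEB factors and keeps the epithelial state, had 17608 bp at 19.6-fold in C4-2B and 18132 bp at 14.1-fold in C4-2BER, with H3K18ac at 6.57- and 6.92-fold. The domain of miR-26b in CTDSP1 was wide in C4-2BER alone (14829 bp at 22.9-fold, then 15928 bp at 18.9-fold), as was that of miR-193b and miR-365a (14084 bp at 19.3-fold, then 15095 bp at 17.0-fold). The domain of miR-210, a hypoxia-induced miRNA, was wide in C4-2B alone (16481 bp at 18.4-fold, then 13509 bp at 14.5-fold). The classes of the miR-26b and miR-193b domains rest on widths close to the minimum of 15000 bp. The miRNAs themselves were not measured.

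The FOXA letters TGTTTAC occurred 94.2 times per Mb on both strands of the domains and 130 times per Mb in all H3K27ac regions, with 81.8 per Mb in domains wide in both lines, 110 in those wide in C4-2BER alone and 99.7 in those wide in C4-2B alone. The grainyhead element, AACC followed by GGTT, occurred 2.72 times per Mb in the domains and 3.00 in all regions, with 2.18 per Mb in domains wide in both lines, 4.26 in those wide in C4-2BER alone and 0 in those wide in C4-2B alone. Base composition differed between these sets as given above, and its part in the motif counts was not tested.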

How the data were processed

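H3K27ac and H3K18ac ChIP-seq was analysed from 4 peak lists, 1 for each mark and cell line, in which the authors had merged the replicate libraries. Per the labels and the study's methods, cells were fixed with a protein crosslinker and formaldehyde. Reads were trimmed (Trimmomatic 0.33 in the submitters' processing notes) and aligned with Bowtie2 to hg38. The Bowtie2 version is 2.2.3 in the same notes, and the paper's methods name another version. Blacklisted, low-quality and duplicate reads were removed, and broad peaks were called with macs2 against input. The macs2 settings are not given in the sources used here. The deposited columns are a fold enrichment (ratio to background), a −log10 p-value, a −log10 q-value and a display score, and of these the fold enrichment was the main measure and the −log10 q-value a filter in an alternative. The lists hold no read counts, so depth is unknown.

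Peaks of at least 15000 bp were joined across lines where they overlapped by 1 bp, and all peaks were joined in the same way for the background. Per domain and list, covered bases, the number of peaks and the fold weighted by covered bases were computed. Start sites came from GENCODE release 44, promoters and miRNAs from RefSeq (GRCh38.p14), and sequence from hg38, the build of the lists. All annotated transcripts counted, and the canonical start is given separately. A start or marker had a peak if one lay within 1000 bp. Intervals are Wilson for shares and order-statistic for medians. Steps were checked on simulated peaks (Python 3.11.15, numpy 2.4.6, pandas 2.3.3, scipy 1.17.1, matplotlib 3.10.9). Named domains were the 5 widest peaks per line, the 5 with the highest and the 5 with the lowest difference in H3K27ac cover, the 3 highest folds per line, the 5 highest and 5 lowest H3K18ac ratios, every ratio of at least 2, the 3 with most and the 3 widest with no protein-coding starts, the peaks at the minimum and every list member. The third PMEPA1 domain, the other GRB10 domains, the miRNA hosts and the elements were chosen after their values were seen. The domains and lists were chosen with earlier results of these data known. With pooled lists, no comparison between lines was tested. Some results that the naming rule would give are not reported here.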

Additional observations from a re-analysis of the deposited data

How the results depend on the processing

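No paired analysis was possible because the lists pool the replicate libraries, and for the same reason no replicate could be left out. The number of domains was 1527 with a minimum of 10000 bp (676 wide in both lines, 676 in C4-2BER alone, 175 in C4-2B alone) and 325 with 20000 bp (125, 159 and 41), and the protein-coding genes with a start inside were 1758 and 554 in place of 886. Taking the same number of wide peaks from each list left 145 domains wide in C4-2BER alone and 131 wide in C4-2B alone. The median difference in H3K27ac cover, 9.18 percentage points toward C4-2BER, became 11.8 when peaks under a −log10 q-value of 5 were left out, 12.4 for peaks of at least 4-fold and 12.2 with a 10000 bp minimum. The median H3K27ac log2 ratio of -0.27 became -0.40 for the highest peak, -0.10 centred on all shared regions, -0.040 centred within GC classes and -0.12 for fold multiplied by covered length. The median H3K18ac log2 ratio of -0.06 became -0.15 for the highest peak and -0.093 with a 10000 bp minimum, and it reversed to 0.062 centred on all shared regions and 0.096 centred within GC classes. The cause of these shifts was not tested. The other 29 recomputed values moved by less than their counting interval or 1.5 times, the H3K18ac cover difference among them.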
